A study of Rattus norvegicus with 12 samples.

Results

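The ADAMTS genes encode secreted metalloproteases with thrombospondin-type repeats, and 10 of them were followed here: Adamts1, Adamts2, Adamts4, Adamts5, Adamts6, Adamts7, Adamts9, Adamts10, Adamts12 and Adamts15. They were taken by gene symbol from a table of 22850 genes, in which 19 rows are ADAMTS proteases and 7 are ADAMTS-like proteins. The set was chosen by measured values, since Adamts5 and Adamts12 had moved in opposite directions when cells given HNG were compared with cells given angiotensin II (AngII) alone. The members' values in that comparison are therefore a description, and no test of it is offered as support. All 10 passed the filter on low counts in each comparison.

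Bulk RNA sequencing was done on primary atrial fibroblasts of Sprague-Dawley rats aged 1 to 3 days, prepared by differential adhesion to plastic and without a sort. The cells received AngII at 1 µmol/L for 48 h in medium with 2% fetal bovine serum, and AngII was given to every group, so that no group without it enters any comparison. HNG, a glycine-substituted analogue of the mitochondrial peptide humanin, was added at 10 µmol/L 1 h before AngII in the AngII+HNG group. MOTS-c, a peptide encoded within mitochondrial ribosomal RNA, was added at 5 µmol/L 1 h before AngII in the AngII+MOTS-c group. Each of the 3 treatments has 4 libraries, with 27960586 to 38322354 counts assigned to genes. In every treatment the library names of replicates 2 and 3 share a number. The study's methods describe 4 biological replicates per treatment and do not say what the shared number stands for, so results were also computed with those libraries summed.

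ADAMTS proteases are made with a propeptide that furin-type convertases remove, act in the extracellular matrix, and are held in check by tissue inhibitors of metalloproteases and by uptake through the receptor Lrp1. They fall into groups by substrate: proteases of the hyaluronan-binding proteoglycans versican and aggrecan, procollagen N-propeptidases, a pair with mucin domains that cleaves cartilage oligomeric matrix protein, and a pair that works with fibrillin microfibrils. In the heart, the cleavage of versican and the trimming of fibrillar procollagens are processes in which fibroblasts take part.

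The RefSeq promoter windows, from 250 bases before to 50 bases after the annotated start in the GRCr8 assembly, hold an entry for 8 of the 10 genes. The part before the outermost annotated start is printed 5′ to 3′ for the genes called in the HNG comparison that have such an entry, because these are the members whose transcript levels differed. The stretch of Adamts12 lies at chr2:61759737-61759974 on the plus strand, Adamts1 at chr11:38427385-38427634 on the minus strand and Adamts9 at chr4:127019925-127020126 on the minus strand. Capitals mark exact matches, on either strand, to the GC box GGGCGG or the TATA box TATAAA.
Adamts12: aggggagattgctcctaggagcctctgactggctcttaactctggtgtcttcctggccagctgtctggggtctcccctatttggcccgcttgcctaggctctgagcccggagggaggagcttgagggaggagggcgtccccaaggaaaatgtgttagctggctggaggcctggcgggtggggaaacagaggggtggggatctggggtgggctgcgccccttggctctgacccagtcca
Adamts1: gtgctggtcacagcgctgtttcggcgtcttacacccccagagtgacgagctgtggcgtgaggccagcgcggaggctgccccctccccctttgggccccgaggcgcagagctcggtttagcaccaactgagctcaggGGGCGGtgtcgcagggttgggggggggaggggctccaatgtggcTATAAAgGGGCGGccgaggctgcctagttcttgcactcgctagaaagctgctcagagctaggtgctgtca
Adamts9: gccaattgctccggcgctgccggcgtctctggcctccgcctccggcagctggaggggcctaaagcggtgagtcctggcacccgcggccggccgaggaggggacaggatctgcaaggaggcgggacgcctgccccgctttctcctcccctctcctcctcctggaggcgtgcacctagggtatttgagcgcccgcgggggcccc
Adamts1 holds GC boxes beginning 114 and 63 bases before the start and a TATA box beginning 70 bases before it, while no match to either stands in the printed stretches of Adamts12 and Adamts9. Over the whole window, the GC box was found in 7 of the 14 ADAMTS genes with an entry and in 33.1% of 33469 promoters, and the TATA box in 3 of the 14 and in 14.2%. The AP-1 element TGANTCA (7.33% of promoters) and the MCAT element GGAATG (14.2% of promoters) were found in none of the 14. Adamts1 and Adamts5, which encode proteases of versican and aggrecan, are direct neighbours on chromosome 11, with 0 annotated genes between them.

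Levels were compared between genes on the FPKM scale, which divides by transcript length. In AngII cells the most abundant family member was Adamts10, at 52.7 ± 1.93 FPKM (SD, n = 4), followed by the procollagen protease Adamts2 at 40.9 ± 2.30 and Adamts1 at 39.3 ± 1.24 FPKM, whose libraries overlapped. Adamts5 came next at 21.0 ± 0.386 FPKM and Adamts12 at 17.6 ± 0.576 FPKM, with no overlap between them or with their neighbours. Adamts7 at 8.72 ± 0.819, Adamts6 at 8.26 ± 0.587 and Adamts8 at 7.83 ± 0.361 FPKM could not be ordered, since the libraries of each neighbouring pair overlapped. Below them stood Adamts14 at 6.39 ± 0.362 and Adamts15 at 5.14 ± 0.585 FPKM, which overlapped, then Adamts9 at 2.54 ± 0.154 and Adamts4 at 1.90 ± 0.244 FPKM. Adamts4, a classical aggrecanase, was thus the least abundant member of the 10, while its close relative Adamts5 was the fourth most abundant. The first 5 places were the same in all 3 treatments, and Adamts5 stood above Adamts12 in each.

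**Figure D1:**
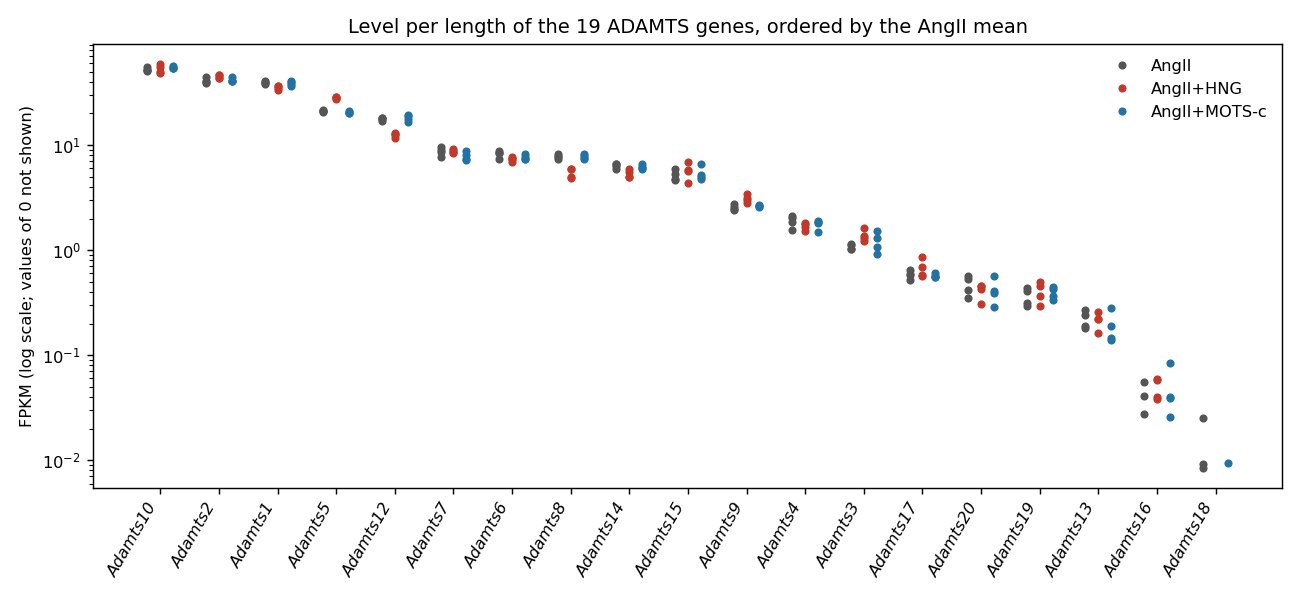
FPKM (log axis) of the 19 ADAMTS genes in each of 12 libraries, ordered from left to right by the AngII mean, with 1 point per library coloured by treatment and values of 0 left out. The points run from Adamts10, near 52.7 FPKM in AngII cells, to Adamts18, and the AngII+HNG points lie above the others for Adamts5 and below them for Adamts12 and Adamts8.

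Adamts5 was higher in every AngII+HNG library than in any other library. Its level in CPM, the gene's counts scaled to a common library total, was 85.1, 86.9, 86.4 and 84.0 in AngII replicates 1 to 4, 110.0, 114.1, 114.3 and 112.0 with HNG, and 81.0, 84.8, 82.8 and 82.8 with MOTS-c. The HNG libraries do not overlap those of either other group, and the coefficient of variation within a treatment was 1.57% to 1.89%. Against AngII the log2 difference was 0.40 (SE 0.036), a fold of 1.32, in the comparison used to choose the genes.

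Adamts12, which carries a mucin-like domain and shares substrates with Adamts7, went the other way. Its level was 161.4, 158.3, 163.3 and 152.7 CPM in AngII, 114.4, 110.4, 103.3 and 116.8 CPM with HNG, and 172.1, 159.5, 169.1 and 149.7 CPM with MOTS-c. All 4 HNG libraries lay below the lowest of the other 8. The log2 difference from AngII was -0.51 (SE 0.044), a fold of 0.701.

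Of the other proteases of versican and aggrecan, Adamts1 was lower with HNG and Adamts9 higher. Adamts1, a broadly expressed hyalectanase, measured 187.4, 183.5, 177.8 and 175.7 CPM in AngII, 165.0, 167.6, 152.2 and 160.0 CPM with HNG, and 172.4, 180.4, 185.2 and 167.7 CPM with MOTS-c. The HNG libraries lay just below both other groups, with 167.6 CPM as the highest HNG value and 167.7 CPM as the lowest MOTS-c value. In FPKM the HNG and MOTS-c libraries overlapped, with a highest HNG value of 36.9 and a lowest MOTS-c value of 36.5. Its log2 difference from AngII was -0.17 (SE 0.041), and this call was lost when replicates 2 and 3 were summed, under limma on FPKM, and when AngII replicate 1, 2 or 3 or AngII+HNG replicate 4 was left out, with the log2 difference between -0.19 and -0.14 over all 18 alternatives.

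Adamts9, the relative of the nematode protease GON-1, measured 29.6, 29.6, 30.5 and 31.7 CPM in AngII, 36.1, 37.8, 36.8 and 34.7 CPM with HNG, and 33.1, 32.4, 31.9 and 32.4 CPM with MOTS-c. In CPM the 3 groups did not overlap, with AngII lowest, MOTS-c between and HNG highest. In FPKM the MOTS-c libraries (2.58 to 2.69) lay within the AngII range (2.39 to 2.74). The HNG libraries stayed above both there (2.84 to 3.39). The log2 difference of HNG from AngII was 0.26 (SE 0.049), and it was not called under limma on FPKM, where the adjusted p reached 0.125. Adamts4 measured 5.88 ± 0.433 CPM with HNG and 6.68 ± 0.865 CPM in AngII, and Adamts15 35.8 ± 6.68 and 32.9 ± 3.81 CPM, each with overlapping libraries.

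The remaining members did not pass the threshold with HNG. Adamts2, the main procollagen N-propeptidase of skin and tendon, measured 278.6, 272.3, 273.6 and 307.9 CPM in AngII, 299.5, 297.9, 318.1 and 319.6 CPM with HNG, and 278.6, 278.4, 283.2 and 309.9 CPM with MOTS-c. Replicate 4 was its highest library in all 3 treatments, and the log2 difference of 0.13 (SE 0.047) passed the threshold once AngII replicate 4 was left out (0.17, edgeR quasi-likelihood adjusted p = 0.0429). Adamts7, the partner of Adamts12 in structure, measured 48.6 ± 1.92 CPM with HNG and 49.3 ± 4.53 CPM in AngII, and replicate 4 was its lowest library in all 3 treatments. The difference between HNG and AngII on the log2 scale was -0.017 (SE 0.064), beside -0.51 for Adamts12. The microfibril-linked Adamts6 and Adamts10 measured 40.0 ± 2.04 and 212.0 ± 18.3 CPM with HNG, beside 42.5 ± 1.31 and 213.5 ± 8.20 CPM in AngII, and their libraries overlapped.

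**Figure D2:**
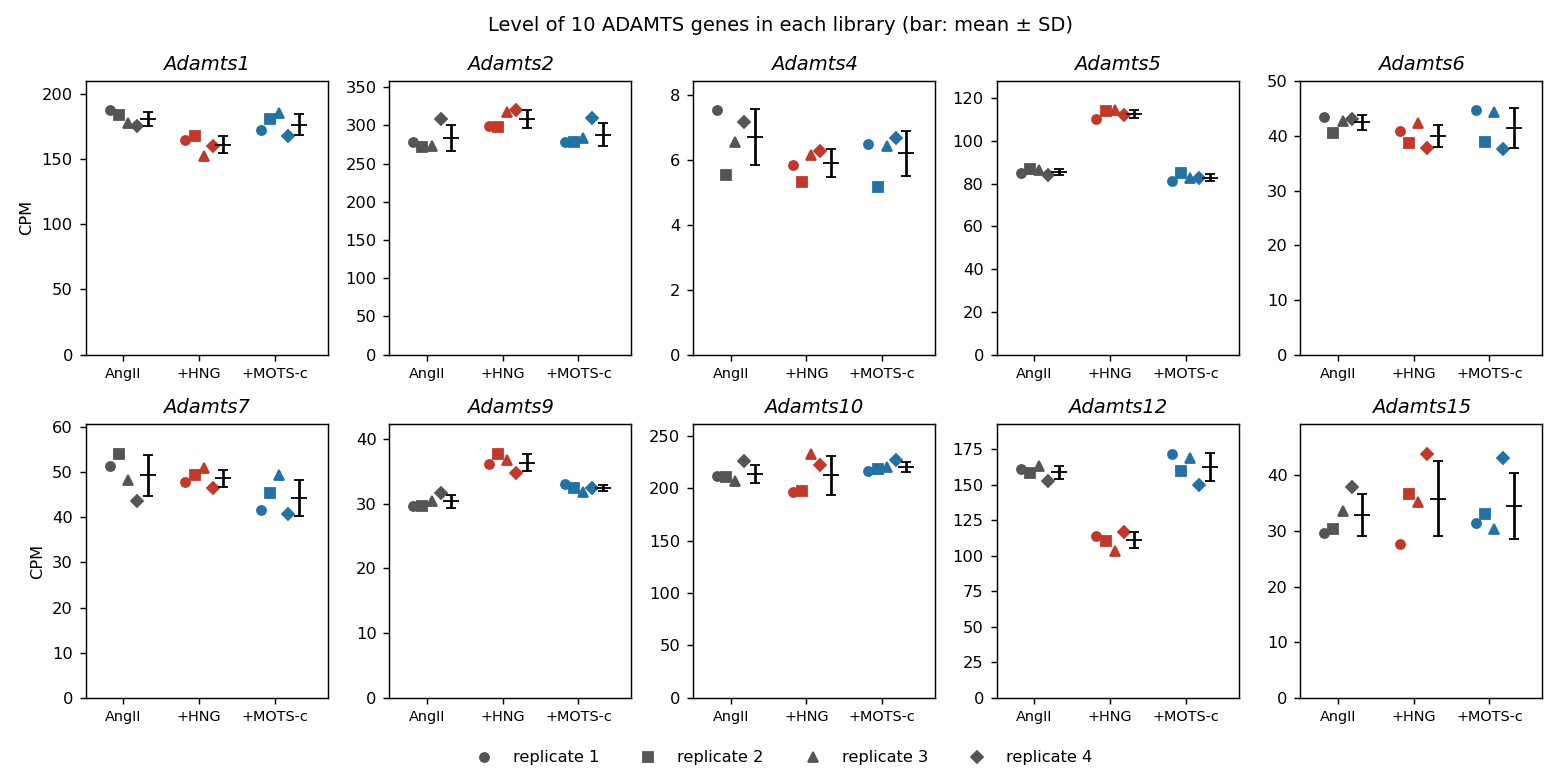
CPM of the 10 ADAMTS genes in each library, on axes that start at 0, with 1 symbol per replicate number and the mean ± SD (n = 4) as a bar beside each treatment. The AngII+HNG libraries stand apart upward for Adamts5 (110.0 to 114.3 CPM) and downward for Adamts12 (103.3 to 116.8 CPM), and replicate 4 is the highest library of every treatment for Adamts2 and Adamts15 and the lowest for Adamts7.

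In the comparison of AngII+HNG with AngII, 4 of the 10 genes passed an adjusted p of 0.05 in edgeR's quasi-likelihood test, beside 5.98% of the 14524 genes tested, and 4 did not overlap between the groups, beside 13.6%. Adamts5 and Adamts9 were the 2 called higher, beside 3.4% of all genes, and Adamts1 and Adamts12 the 2 called lower, beside 2.58%. Because this contrast chose the set, nothing is read from those shares. The median log2 difference of the members was -0.012, and that of all genes tested was 0.0043.

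The comparison of AngII+MOTS-c with AngII was not used to choose the genes, although it uses the same AngII libraries. None of the 10 was called in edgeR's test, and 2, Adamts7 and Adamts9, had an unadjusted p below 0.05. DESeq2 and the other 17 alternatives also called 0. Across all genes, 0.0069% of 14488 were called (1 gene, and 732 at an unadjusted p below 0.05). Adamts9 was the 1 member whose groups did not overlap in CPM, beside 3.44% of all genes, and in FPKM its groups overlapped. The members' log2 differences ran from -0.15 for Adamts7 to 0.096 for Adamts9, with edgeR adjusted p-values of 0.924 to 0.971, and their median was -0.0072 beside -0.00076 for all genes. For Adamts5 the log2 difference was -0.046 with an interval of 2 SE from -0.11 to 0.015, and for Adamts12 it was 0.034 with an interval from -0.052 to 0.12. The HNG differences of 0.40 and -0.51 lie outside those intervals, but they come from the comparison that chose the pair, so nothing is read from the gap. A p that misses the threshold does not show that MOTS-c left these genes as they were.

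HNG and MOTS-c were given at different doses, so the comparison of AngII+HNG with AngII+MOTS-c sets the groups side by side as given. It shares the HNG libraries with the comparison that chose the genes. Adamts5 was 0.44 (SE 0.036) higher on the log2 scale in AngII+HNG and Adamts12 was -0.55 (SE 0.053), that is, lower. These were the 2 members called in edgeR's test, beside 4.41% of 14448 genes, with 1 higher beside 2.64% and 1 lower beside 1.77%. Adamts1 and Adamts9 did not overlap between the groups in CPM either, so that 4 members did not, beside 12.5% of all genes. In FPKM the Adamts1 groups overlapped. Adamts1 and Adamts9 missed the edgeR threshold with log2 differences of -0.13 (adjusted p = 0.126) and 0.16 (adjusted p = 0.0777). Adamts9 passed with DESeq2 (adjusted p = 0.0465) and in the edgeR fit of all 12 libraries (adjusted p = 0.0357), and its adjusted p reached 0.215 over the 18 alternatives.

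**Figure D3:**
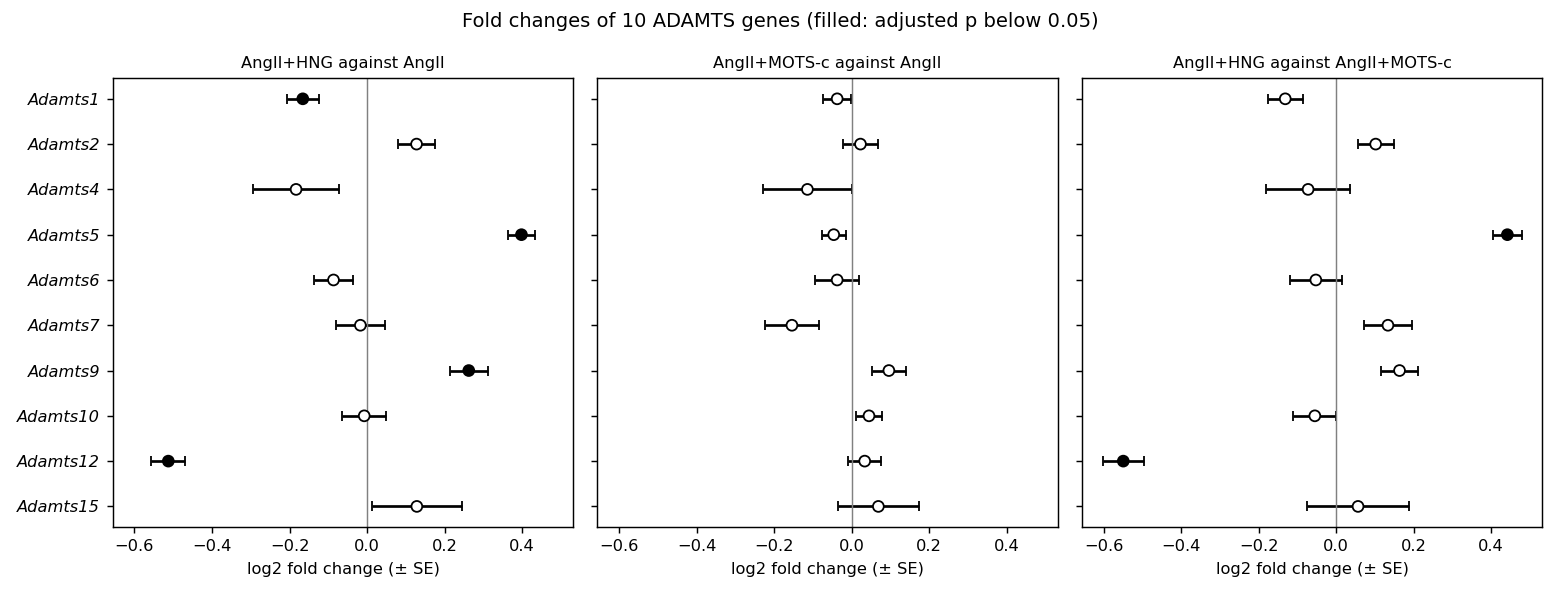
Log2 fold changes (points) with their standard errors (bars) of the 10 ADAMTS genes in the 3 comparisons, with filled points for an adjusted p below 0.05 in edgeR. Adamts5 lies right of 0 and Adamts12 left of 0 in both comparisons that hold the AngII+HNG libraries (0.40 and 0.44, -0.51 and -0.55), and no point is filled for AngII+MOTS-c against AngII.

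The summed FPKM of the 19 ADAMTS genes was 215.1 ± 2.60 in AngII, 215.1 ± 6.54 with HNG and 216.2 ± 1.84 with MOTS-c (SD, n = 4 each). The make-up of that sum differed. Adamts5 accounted for 9.79% ± 0.294 of it in AngII, 13.1% ± 0.319 with HNG and 9.48% ± 0.176 with MOTS-c, and Adamts12 for 8.20% ± 0.341, 5.82% ± 0.384 and 8.40% ± 0.596. The ratio of Adamts12 to Adamts5 FPKM ran from 0.820 to 0.856 in AngII, from 0.408 to 0.471 with HNG and from 0.816 to 0.959 with MOTS-c. The HNG range lay below both others, and the AngII and MOTS-c ranges overlapped. The pair was chosen for its opposite differences with HNG, so the HNG shares and ratio restate that choice. Once each treatment's mean was removed, the log2 CPM of Adamts5 and Adamts12 had a Pearson correlation of -0.357 and a Spearman correlation of -0.441 over the 12 libraries, a description of libraries that share treatments and depth.

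**Figure D4:**
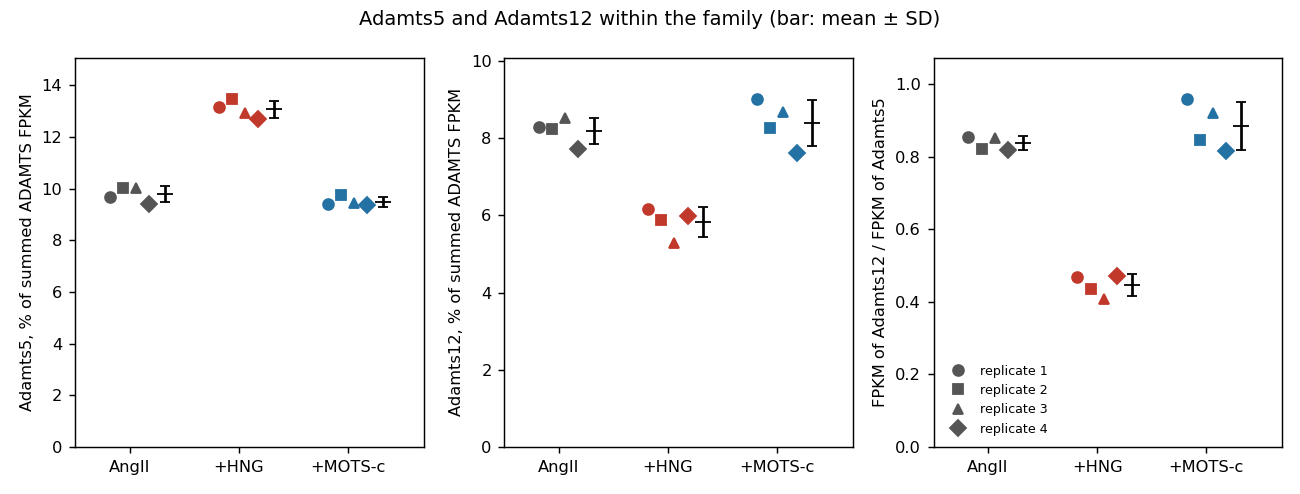
Adamts5 and Adamts12 as a percentage of the summed FPKM of 19 ADAMTS genes, and the ratio of their FPKM, in each library on axes that start at 0, with the mean ± SD (n = 4) as a bar. The ratio is 0.446 on average with HNG, below every AngII and MOTS-c library. The pair was chosen for its opposite differences with HNG.

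Of the 9 other ADAMTS proteases, 8 could be tested against AngII. With HNG, 2 were lower, beside 2.58% of all genes, and 0 higher, beside 3.4%, in edgeR's test. Adamts8, a protease with reported activity on aggrecan, measured 29.5, 27.4, 28.2 and 26.7 CPM in AngII, 20.7, 17.2, 21.0 and 17.4 CPM with HNG, and 29.1, 27.6, 26.8 and 26.4 CPM with MOTS-c. All HNG values lay below the others, and the log2 difference from AngII was -0.55 (SE 0.073, edgeR adjusted p = 0.00103), close in size to that of Adamts12. Adamts14, a procollagen N-propeptidase related to Adamts2, fell from 34.2 ± 1.75 to 27.8 ± 1.86 CPM (log2 difference -0.29, SE 0.060, edgeR adjusted p = 0.0124). The third such propeptidase, Adamts3, measured 7.73 ± 0.462 CPM in AngII and 9.68 ± 1.16 CPM with HNG and missed the threshold (edgeR adjusted p = 0.0762), as did Adamts2. Adamts13, Adamts16, Adamts17, Adamts19 and Adamts20 were not called. Adamts18 was too low to test, with no count in any HNG library, which allows up to 0.0791 to 0.107 CPM per library at 3 counts (counting error only).

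ADAMTS-like proteins share the repeats of the family without the protease domain. Of 7 tested, 2 were higher with HNG, beside 3.4% of all genes: Adamtsl3, from 165.3 to 197.1 CPM (log2 difference 0.26, SE 0.039, edgeR adjusted p = 0.00241), and Adamtsl5, from 23.7 to 30.8 CPM (0.38, SE 0.062, edgeR adjusted p = 0.00333). Both were also called against MOTS-c. Adamtsl4 (0.19, edgeR adjusted p = 0.0521) and Adamtsl1 (-0.20, edgeR adjusted p = 0.0621) missed the threshold on opposite sides of 0. Adamtsl2 (0.23, edgeR adjusted p = 0.115), Thsd4 (0.16, adjusted p = 0.229) and Papln (-0.036, adjusted p = 0.964) were not called either. The median log2 difference of the 7 was 0.19, and that of all genes was 0.0043.

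On the list of metalloprotease inhibitors and uptake genes, 3 of 6 tested were higher with HNG, beside 3.4% of all genes, and 0 lower. Their action on the ADAMTS proteases was not measured. Timp2, a tissue inhibitor of metalloproteases, differed by 0.20 (SE 0.044, edgeR adjusted p = 0.0151), Reck, a membrane-bound inhibitor, by 0.20 (SE 0.045, adjusted p = 0.0188), and Lrp1, the uptake receptor, by 0.17 (SE 0.035, adjusted p = 0.012). Timp3, the inhibitor with the broadest action on ADAMTS proteases, measured 240.4 CPM with HNG and 257.9 CPM in AngII and was not called (edgeR adjusted p = 0.197). Among 8 genes of activation, glycosylation and cofactors, 1 was called, beside 5.98% of all genes. It was Fbln1, a fibulin that acts as a cofactor of Adamts1, which was higher by 0.46 (SE 0.098, edgeR adjusted p = 0.0146), while the convertase Furin differed by 0.018.

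Among hyaluronan-binding proteoglycans and hyaluronan genes, 1 of 13 tested was higher with HNG and 1 lower, beside 3.4% and 2.58% of all genes, which are also the shares to set beside the counts of the next lists. Acan, which encodes aggrecan, rose from 8.80 to 12.6 CPM (0.52, SE 0.12, edgeR adjusted p = 0.0245), and Has2, a hyaluronan synthase, fell from 7.02 to 4.23 CPM (-0.73, SE 0.11, edgeR adjusted p = 0.00227). Vcan, which encodes versican and was far more abundant at 521.6 CPM in AngII and 463.3 CPM with HNG, was not called (-0.17, edgeR adjusted p = 0.0977). Of 9 genes of procollagens and their processing, Tll1, a procollagen C-proteinase, was lower (-0.43, SE 0.10, edgeR adjusted p = 0.0238), and Col1a1, which encodes a procollagen chain that Adamts2 trims, differed by -0.041. Of 10 microfibril genes, Ltbp2 was lower (-0.21, SE 0.043, edgeR adjusted p = 0.0131). Of 12 other reported substrates, Fmod, a collagen-binding proteoglycan, was higher (0.31, SE 0.046, edgeR adjusted p = 0.00227), and the matricellular gene Ccn2 (-0.31, SE 0.052, adjusted p = 0.00454) and the basement membrane gene Nid1 (-0.21, SE 0.035, adjusted p = 0.00343) were lower. Comp, the namesake substrate of Adamts7 and Adamts12, stood at 0.491 CPM in AngII and 0.772 CPM with HNG and was not called.

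Over all 73 related genes tested, 8 were higher and 7 lower with HNG, 20.5% in all beside 5.98% of all genes, and their median log2 difference was 0.016 beside 0.0043. The lists were drawn up with earlier results of these data known, and fewer of these genes were called without AngII replicate 1 and under limma on FPKM. None of the 73 was called with MOTS-c in edgeR's test, where 2 had an unadjusted p below 0.05, and none was called in the 18 alternatives.

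**Figure D5:**
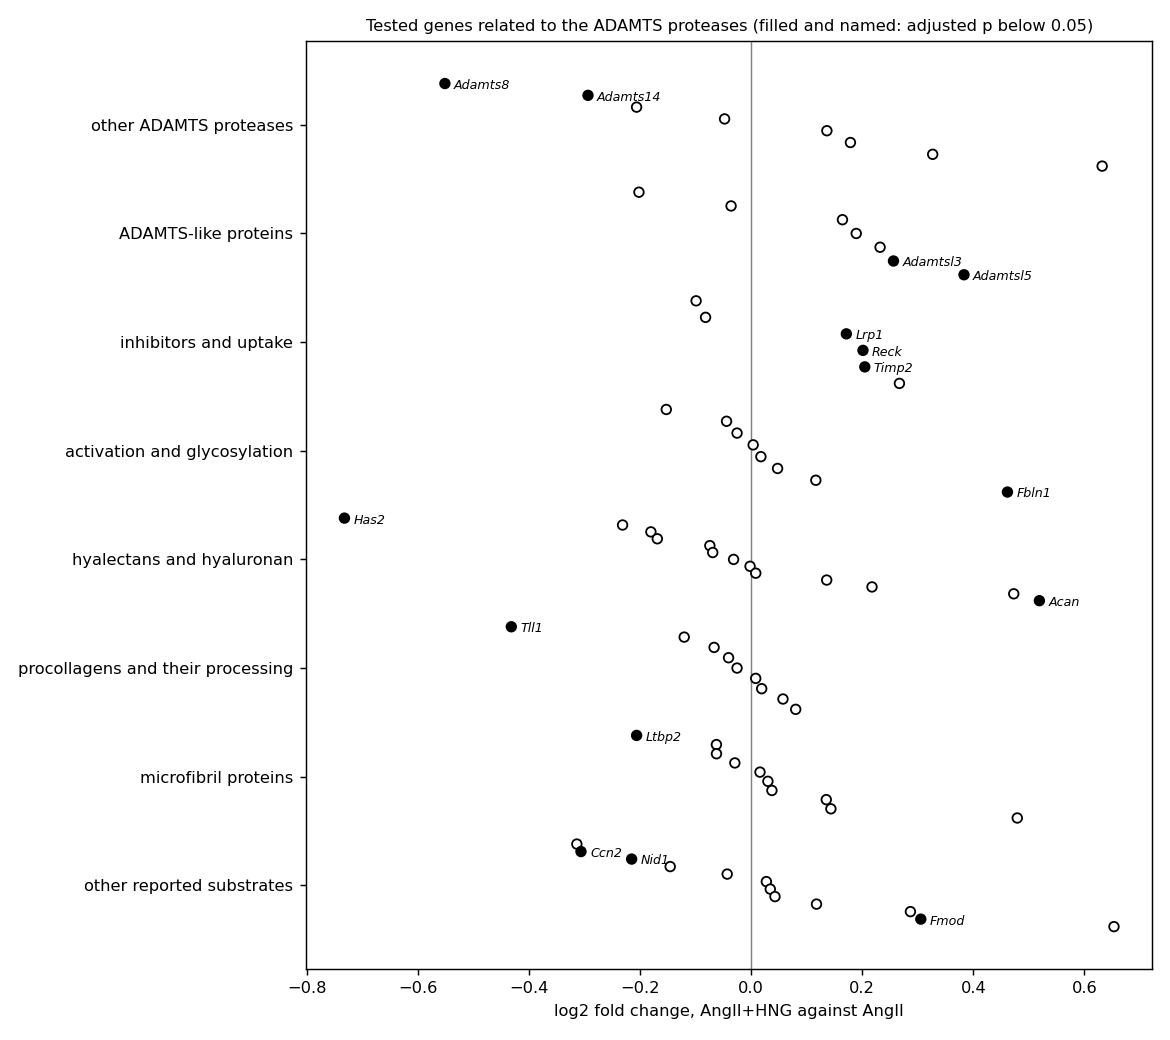
Log2 fold change of AngII+HNG against AngII for the 73 tested genes of 8 related lists, 1 point per gene, with filled and named points for an adjusted p below 0.05 in edgeR. Called genes lie on both sides of 0, from Has2 at -0.73 to Acan at 0.52, and the called inhibitors and uptake genes lie on the right side.

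The genes whose log2 CPM followed that of each protease most closely were ranked by Pearson's r over the 12 libraries among the 9140 genes that averaged 10 CPM or more. For Adamts5 they were Prelp (r = 0.985), Sulf2 (0.975), B3gnt9 (0.975), Cd34 (0.974) and Glb1l (0.969), and for Adamts12 they were Il1rl1 (0.981), Ets1 (0.974), Wls (0.972), Nid1 (0.971) and Fam107b (0.970). With the treatment means removed, r was 0.103 to 0.624 for the 5 genes like Adamts5 and 0.530 to 0.724 for the 5 like Adamts12. When genes were ranked on those deviations instead, 0 of the 5 stayed among the top 5 for either protease. These are descriptions over libraries that share treatment and depth.

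Markers of other cell types were measured in the same libraries. All 8 fibroblast markers were above 1 CPM, and 2 of them, Tcf21 (log2 difference 0.28) and Thy1 (0.17), were called higher with HNG, beside 3.4% of all genes called higher and 2.58% called lower. The 6 cardiomyocyte markers were above 1 CPM too, and their summed level of 6174 to 6954 CPM in AngII and 6382 to 7487 CPM with HNG overlapped and none was called. The summed level of 10 macrophage markers was 235.7 to 287.4 CPM in AngII, 325.3 to 426.8 CPM with HNG and 229.9 to 284.7 CPM with MOTS-c, with 3 of 9 tested called higher with HNG, beside 3.4%. These were Lyz2 (102.3 CPM in AngII and 171.6 CPM with HNG), Cd68 and Mrc1, while Adgre1 (3.37 and 2.62 CPM) and C1qc (2.43 and 1.80 CPM) were not called and Cd163 stayed below 1 CPM. The 6 endothelial markers summed to 58.5 to 66.3, 74.7 to 82.4 and 61.3 to 66.6 CPM, with 2 of 6 called higher with HNG, beside 3.4%. The 8 smooth muscle and pericyte markers, which include the myofibroblast gene Acta2, summed to 6592 to 6900, 5178 to 5778 and 6276 to 6841 CPM, with 4 of 8 called lower with HNG, beside 2.58%. Lists for Schwann, epicardial and proliferating cells held no called gene. The part of these levels in the ADAMTS results was not tested, and in bulk samples fewer cells of a type and less RNA per cell cannot be told apart.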

How the data were processed

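The 12 libraries, 4 per treatment, had been sequenced as paired ends on a DNBSEQ instrument. The authors deposited read counts per gene, not normalized, and FPKM values per gene (fragments scaled by transcript length and library total). The submitters' processing notes name HISAT2, Picard 1.41 and SAMtools 0.1.18, while the counting tool, strand setting and genome build are not given in the sources used here. Reads from overlapping genes or antisense partners could therefore be shared.

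Groups were taken from the labels. The study's methods call the 4 libraries of a treatment biological replicates, without saying whether each came from a separate cell isolation, so p-values measure the spread between these libraries. Counts were fitted per pair of treatments with edgeR 4.0.16 (R 4.3.3): filterByExpr, TMM scaling (factors 0.990 to 1.01), the quasi-likelihood test and Benjamini-Hochberg adjustment over all genes tested, with a threshold of 0.05. Log2 CPM used a prior count of 2, and intervals are 2 SE. The steps were tested on simulated data. Alternatives were DESeq2 1.42.0, other scaling, other filters, all 12 libraries in a single fit, blocks, replicates 2 and 3 summed, limma 3.58.1 on log2(FPKM + 1) and log2(FPKM + 0.1), and leaving out each library. All 12 columns were used.

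The members and lists were chosen with earlier results of these data known. Named genes were all 10 members, every other ADAMTS and ADAMTS-like gene that passed the filter, up to 4 called genes per related list, and the 5 genes most like Adamts5 and Adamts12. Genes named outside that rule (Adamts18, Timp3, Furin, Vcan, Col1a1, Comp, and the markers) were named after their values were seen.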

Additional observations from a re-analysis of the deposited data

Results flagged for a closer look

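Adamts2 in AngII+MOTS-c replicate 4 stood apart from the other libraries of its group: at 309.9 CPM, its gap to the nearest library was 0.850 of the group's whole range. It was the 1 such value among 30 sets of 4 libraries examined, and chance alone gives about 1 in 20. Replicate 4 was the highest Adamts2 library in all 3 treatments, and in AngII it stood at 307.9 CPM with the next library at 278.6 CPM. Without the flagged library, and with AngII replicate 4 kept, the log2 difference of AngII+MOTS-c from AngII was -0.015. With the flagged library included it was 0.023.

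AngII+HNG and AngII+MOTS-c cells were set side by side for the pair. Adamts5 exceeded its MOTS-c level by 0.44 on the log2 scale in HNG cells, and Adamts12 differed by -0.55. All 4 HNG libraries lay on the same side of all 4 MOTS-c libraries for each gene. These genes were chosen for their values in the HNG libraries, and the doses of the peptides differed, so the differences are a description and edgeR's call of them is no independent test.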

How the results depend on the processing

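Adamts5 and Adamts12 kept their direction and their call in all 18 alternatives, with log2 differences from AngII of 0.39 to 0.41 and -0.54 to -0.46. The pair was chosen in this comparison and the alternatives reuse its libraries, so this describes the processing and is no independent support. The count of members called with HNG fell from 4 to 2 under limma on FPKM with either pseudocount (2 and 2). Those fits also left out the low-count filter and tested 18055 genes, against 14524. Adamts1 alone was lost with replicates 2 and 3 summed and without AngII replicate 1, 2 or 3 or AngII+HNG replicate 4. Adamts2 was added without AngII replicate 4. Genes called with HNG over the whole table fell from 869 to 577 with replicates 2 and 3 summed, to 475 and 496 under limma on log2(FPKM + 1) and log2(FPKM + 0.1), and ranged from 431 to 932 when 1 library was left out, lowest without AngII replicate 1. Under limma with a pseudocount of 1 the split was 319 higher and 156 lower, against 494 and 375. Related genes called with HNG, 15, became 9 under limma with either pseudocount and ranged from 8 to 19 without 1 library, with 8 lacking AngII replicate 1 and 9 lacking AngII replicate 2. Genes called with MOTS-c, 1, became 4 with DESeq2, 0 with all 12 libraries, 0 with replicates 2 and 3 summed, and 0 to 3 without 1 library. HNG against MOTS-c gave 637 calls, and 1034 with DESeq2, 975 with all 12 libraries, 304 and 319 under limma (219 higher and 85 lower, 230 and 89, against 381 and 256), and 322 to 625 without 1 library. The causes were not tested.

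Some differences that passed no threshold changed sign around 0. With HNG against AngII, Adamts7 gave 0.0020 and 0.0026 and Adamts10 0.010 and 0.010 under limma, and -0.074 to 0.028 and -0.057 to 0.028 without 1 library. With MOTS-c against AngII, leaving out 1 library gave -0.015 to 0.065 for Adamts2, -0.077 to 0.0058 for Adamts6 and -0.056 to 0.15 for Adamts15, and for HNG against MOTS-c it gave -0.054 to 0.18 for Adamts15. Each sign change with MOTS-c against AngII came without AngII+MOTS-c replicate 4.

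Same-numbered replicates did not pair by the rule that every correlation of their deviations exceed 0.1. The correlations ran from -0.0755 to 0.136 for HNG against AngII, from 2.96e-05 to 0.119 for MOTS-c against AngII and from -0.014 to 0.212 for HNG against MOTS-c, with replicate 4 the highest in each, and 2, 4 and 5 of 8 libraries correlated best with their own number. With a replicate block, 23 related genes were called with HNG, 2 genes with MOTS-c and 1054 in HNG against MOTS-c, and the members called were unchanged.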
